A study of Mus musculus with 4 samples.

Results

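The genes described here encode KRAB-type zinc finger proteins of the mouse. They were taken as all genes whose symbol starts with Zfp and a digit and whose annotated KEGG pathways include ko05168 (herpes simplex virus 1 infection), the map in which KEGG lists this family. The rule selected 237 of 22063 genes listed, out of 401 genes with such a symbol and 550 genes with that pathway, and used no measured value. All 237 carried the KEGG orthology term K09228, KRAB domain-containing zinc finger protein, and 235 were annotated as C2H2 zinc finger transcription factors, neither of which the rule had used. The symbol Zfp120 is listed under 2 gene identifiers and was counted under each.

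RNA sequencing was performed on TKPTS cells (TKPT in the labels), a cell line derived from mouse proximal tubule epithelium and therefore a model with a single cell source. Of 4 libraries, 2 came from cells given a scrambled control siRNA (si-NC, genotype WT, replicates 2 and 3) and 2 from cells given an siRNA against Itgb6 (si-Itgb6, genotype Itgb6 knockdown, replicates 1 and 3). Cells of both groups were kept at 1% O2 for 24 h and then at normal oxygen for 12 h, so the comparison concerns Itgb6 siRNA under hypoxia and reoxygenation. The study asked how integrin αvβ6, whose β6 subunit Itgb6 encodes, acts in injured tubule cells.

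The libraries held 15435074 to 17220281 counts, and 11727 genes were tested. Itgb6 itself was at 17.5 and 16.4 CPM (counts scaled to library size with TMM factors) in si-NC and at 18.03 and 15.8 CPM in si-Itgb6. Its groups overlapped, and the log2 fold change was −0.0051 (95% interval −0.27 to 0.26, adjusted p = 0.991), so the mRNA did not show the labelled knockdown. Hence "si-Itgb6" below means the libraries labelled so, and every direction is between labels. By western blot the study reports less αvβ6 protein after Itgb6 siRNA in hypoxic TKPTS cells. It also states that the siRNA was checked by qPCR. Whether those cells came from the sequenced cultures is not stated. Of 9 proximal tubule markers, 2 had a mean of at least 1 FPKM (fragments scaled to transcript length and library size): the water channel Aqp1 at 12.2 and the cadherin Cdh16 at 53.0. Aqp1 rose in si-Itgb6 (log2 fold change 0.59, adjusted p = 0.000617). Slc34a1, Slc5a2 and Slc22a6, transporters that define the segment, were at 0 in all 4 libraries. The summed level of 4 epithelial markers ran from 1314 to 1336 FPKM in si-NC and from 1212 to 1225 FPKM in si-Itgb6. Of 4 macrophage markers, Ptprc and Adgre1 were near 0 while Cd68 averaged 84.5 FPKM and Csf1r 7.86 FPKM. The sum of the 4 ran from 92.6 to 100.03 FPKM in si-NC and from 84.4 to 92.6 FPKM in si-Itgb6. The sums of the injured tubule markers were 902 to 929 FPKM in si-NC and 844 to 860 FPKM in si-Itgb6, with Havcr1 rising and Lcn2 falling. Endothelial and fibroblast markers summed to at most 2.05 FPKM in any library. The part of these shifts in the values below was not tested.

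KRAB zinc finger proteins bind DNA through an array of C2H2 zinc fingers. Their KRAB domain recruits the scaffold protein KAP1, encoded by Trim28, which brings in the histone H3K9 methyltransferase SETDB1, HP1 proteins and histone deacetylases, and the bound locus is silenced. Many members recognize transposable elements, a few guard the DNA methylation of imprinted genes, and most lie in clusters of tandem duplicates that differ between mammals. They are known mainly from embryonic stem cells and early embryos, and most have no described role in the kidney tubule.

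Promoters of 6 members are printed here because they show how far cluster neighbours resemble each other in sequence and base composition. The GC ranges and trends further below use the longest transcript of a gene and not its promoter. Each is the stretch of 250 bases before and 50 bases after the first RefSeq start site in GRCm38.p6, read 5′ to 3′ on the gene's strand. Capitals mark ACGTG, or its reverse complement CACGT, the core of hypoxia response elements. CACGTG matches on both strands. Zfp54 (chr17:21422977-21423276, plus strand), Zfp52 (chr17:21535289-21535588, plus strand) and Zfp948 (chr17:21566728-21567027, plus strand) are neighbours on chromosome 17, and Zfp68 (chr5:138619694-138619993, minus strand) is the member with the lowest p. Zfp746 (chr6:48086544-48086843, minus strand) and Zfp777 (chr6:48047745-48048044, minus strand) are neighbours that had lower values in si-Itgb6.
Zfp54: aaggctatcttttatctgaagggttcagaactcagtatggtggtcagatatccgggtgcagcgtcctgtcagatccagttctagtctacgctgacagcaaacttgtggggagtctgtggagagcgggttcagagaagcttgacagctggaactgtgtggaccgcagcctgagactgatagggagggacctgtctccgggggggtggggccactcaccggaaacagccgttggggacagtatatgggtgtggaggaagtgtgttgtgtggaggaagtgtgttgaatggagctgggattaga
Zfp52: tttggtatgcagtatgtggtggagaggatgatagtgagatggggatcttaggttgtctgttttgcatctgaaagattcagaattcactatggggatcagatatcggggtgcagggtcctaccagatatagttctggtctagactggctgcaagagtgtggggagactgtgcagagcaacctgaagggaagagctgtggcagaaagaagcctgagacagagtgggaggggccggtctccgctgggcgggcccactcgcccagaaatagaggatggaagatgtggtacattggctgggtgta
Zfp948: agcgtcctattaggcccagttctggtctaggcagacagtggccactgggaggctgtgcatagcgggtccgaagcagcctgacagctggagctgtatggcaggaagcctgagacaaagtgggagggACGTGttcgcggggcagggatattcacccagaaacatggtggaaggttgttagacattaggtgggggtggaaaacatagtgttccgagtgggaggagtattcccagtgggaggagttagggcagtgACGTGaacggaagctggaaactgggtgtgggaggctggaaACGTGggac
Zfp68: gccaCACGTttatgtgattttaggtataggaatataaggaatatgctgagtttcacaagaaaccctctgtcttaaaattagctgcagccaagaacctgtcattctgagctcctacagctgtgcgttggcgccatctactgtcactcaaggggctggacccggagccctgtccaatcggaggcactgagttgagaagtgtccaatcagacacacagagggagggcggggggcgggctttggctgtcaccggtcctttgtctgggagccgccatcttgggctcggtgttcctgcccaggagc
Zfp746: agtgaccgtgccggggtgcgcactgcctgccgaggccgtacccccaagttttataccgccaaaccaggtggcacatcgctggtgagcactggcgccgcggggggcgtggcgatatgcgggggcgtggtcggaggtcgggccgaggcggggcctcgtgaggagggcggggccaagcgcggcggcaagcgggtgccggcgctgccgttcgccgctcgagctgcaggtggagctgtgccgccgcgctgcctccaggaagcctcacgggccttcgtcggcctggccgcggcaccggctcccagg
Zfp777: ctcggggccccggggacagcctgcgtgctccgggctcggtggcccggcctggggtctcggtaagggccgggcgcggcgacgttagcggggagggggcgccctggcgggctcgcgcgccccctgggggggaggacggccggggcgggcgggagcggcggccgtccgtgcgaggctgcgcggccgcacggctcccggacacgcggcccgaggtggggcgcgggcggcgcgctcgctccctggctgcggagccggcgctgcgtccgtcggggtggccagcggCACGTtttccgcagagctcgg

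In a local alignment, the Zfp54 and Zfp52 promoters shared 89 of 111 aligned bases and the Zfp54 and Zfp948 promoters 66 of 85. Zfp52 and Zfp948 shared 23 of 24. Only the best-scoring stretch of a pair is counted, so a short one does not show that a pair lacks other shared stretches. No other pair of the 6 aligned over more than 19 bases, the neighbours Zfp746 and Zfp777 over 11. The GC content of the first 4 promoters was 52.3% to 57.0%, against 74.3% for Zfp746 and 82.3% for Zfp777. RefSeq promoters were matched by symbol for 202 of the 237 members, which have 237 promoters. ACGTG on either strand was present in 21.1% of the members' promoters and in 19.6% of all 32851. Counted by gene, since alternative promoters of a gene can overlap and share a match, it was present for 21.8% of the members and 21.8% of all 27025 genes, for 8 of the 21 matched members called higher and for 1 of the 3 called lower. GGAATG, or its reverse complement CATTCC, the core of sites for TEAD factors of the Hippo pathway, was present in 16.5% of the members' promoters and 14.7% of all promoters, and by gene for 4 of the 21 and 0 of the 3. These are matches of letters and not measured binding sites.

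The members were weakly expressed. Of 237, 16 had no count in any library, 135 had a mean under 1 FPKM, 94 had 1 to 10 FPKM and 8 exceeded 10 FPKM. The low-count filter kept 176 members (74.3%) and left 61 untested. Of the 176, 9 passed only through the si-Itgb6 libraries (2 of them, Zfp85 and Zfp92, are among the members called higher below), 5 only through the si-NC libraries and 9 only with libraries of both groups together. The median level of the members tested was 1.35 FPKM, against 9.07 FPKM for all genes tested. The highest mean was 25.9 FPKM in Zfp7, followed by Zfp68 (20.4), Zfp51 (19.1), Zfp52 (18.1) and Zfp386 (16.0). For 51 of the 176 the estimated counts were not whole in at least 1 library, as happens where reads are shared with similar genes, and 43 had an exon that overlaps another annotated gene. The reads were not strand-specific, so reads of an overlapping partner cannot be told apart from the member's own. Among the 27 members called higher below, 8 had such an overlap and 6 had counts that were not whole.

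Summed over the 237 members, the level was 1271 and 1302 CPM in the si-NC libraries and 1469 and 1476 CPM in the si-Itgb6 libraries. The sums of the groups did not overlap. The median log2 CPM of a member tested was 1.92 in si-NC replicate 2, 2.08 in si-NC replicate 3, 2.13 in si-Itgb6 replicate 1 and 2.09 in si-Itgb6 replicate 3, so that by this measure si-NC replicate 3 lay close to the si-Itgb6 libraries and si-NC replicate 2 lay below the other 3. The median log2 fold change of the 176 members was 0.19 (1.14-fold), with quartiles of −0.043 and 0.40 and a range from −0.92 to 1.89. Of the 176, 125 were positive and 51 negative. The median of all 11727 genes tested was 0.00017, with 5869 positive. Among the 9 members that passed the low-count filter only through the si-Itgb6 libraries, 8 were positive. When genes were instead filtered on the mean over all libraries, 118 of 169 members were positive and their median was 0.175.

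With the study's thresholds, a difference of more than 1.2-fold with an unadjusted p under 0.05, 27 members were called higher in si-Itgb6 (15.3% of those tested) and 3 were called lower (1.70%). Over all genes tested the same thresholds called 4.37% higher and 5.2% lower. With an adjusted p under 0.05, 9 members rose (5.11%, against 2.11% of all genes) and 0 fell (against 2.52% of all genes). At an unadjusted p under 0.05 without the fold change threshold 30 members were higher and 3 lower, against 8.8% and 9.62% of all genes. DESeq2 gave 3 members higher and 0 lower at an adjusted p under 0.05, against 2.51% and 2.68% of the 5816 genes for which it gave an adjusted p, but only 12 members were among these because it leaves out genes of low mean count. The lowest si-Itgb6 library exceeded the highest si-NC library in 68 members (38.6%, against 23.8% of all genes), and the opposite held in 23 (13.1%, against 25.4% of all genes). All 27 members called higher and all 3 called lower were among these. The 27 had a median log2 fold change of 0.48. Only 4 of them exceeded a 2-fold difference, and 10 of them averaged fewer than 100 counts per library.

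**Figure D1:**
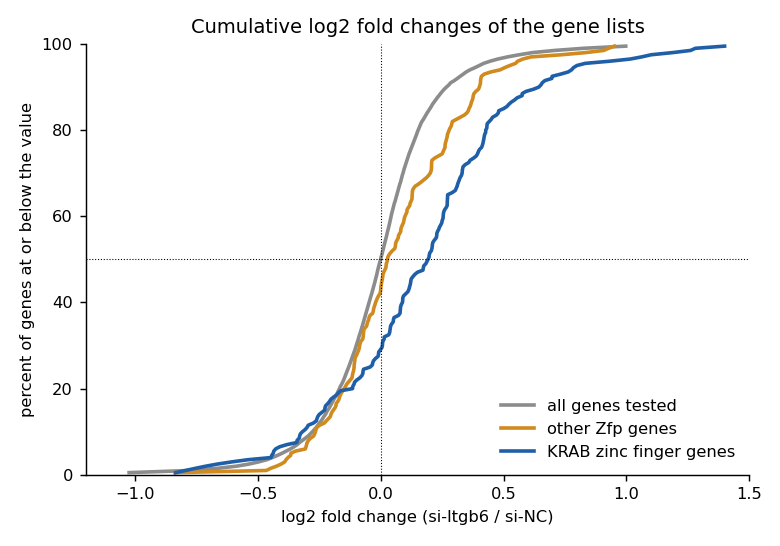
Cumulative share (%) of genes against the log2 fold change of si-Itgb6 over si-NC, for the 176 KRAB zinc finger genes tested, the 134 other Zfp genes tested and all 11727 genes tested. The curve of the KRAB zinc finger genes lies to the right over its upper part, with its median at 0.19 against 0.00017 for all genes.

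The 9 members that rose are given first, with values in the order si-NC replicates 2 and 3 and then si-Itgb6 replicates 1 and 3. Zfp68 (chromosome 5, 138603652 to 138619761, minus strand, GRCm38) was at 43.5 and 42.6 CPM and then at 55.7 and 60.4 CPM. The 2 groups were clearly apart, and the gene had the lowest p of the family (log2 fold change 0.43 ± 0.085 SE, adjusted p = 0.00179). Its exons overlap the annotated genes Gm24082 and Gm42815. No role is assigned to it here.

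Zfp54, Zfp51, Zfp52 and Zfp948 lie in this order on the plus strand of chromosome 17 between 21423227 and 21588699, with Zfp53 between Zfp51 and Zfp52. Zfp51 was at 36.1 and 46.6 CPM and then at 52.8 and 61.7 CPM (log2 fold change 0.47 ± 0.10 SE, adjusted p = 0.00365). Zfp52 was at 35.0 and 39.2 CPM and then at 46.8 and 54.5 CPM (log2 fold change 0.45 ± 0.094 SE, adjusted p = 0.00329). In both genes the groups did not overlap and replicate 3 was the higher library in each group. In Zfp51 the libraries within each group lay further apart than the nearest libraries of the 2 groups. Zfp948 was at 37.7 and 35.9 CPM and then at 43.7 and 47.3 CPM (log2 fold change 0.31 ± 0.091 SE, adjusted p = 0.0479). Zfp54, a much less abundant transcript, was at 1.84 and 2.08 CPM and then at 4.59 and 3.71 CPM, which is 30 and 36 against 71 and 61 counts. It had the largest difference of the 9 (log2 fold change 1.07 ± 0.30 SE, adjusted p = 0.0355), and its groups were well apart. Zfp53, named because of its position after its values were seen, was at 17.3 and 16.6 CPM and then at 16.99 and 19.1 CPM (log2 fold change 0.09, adjusted p = 0.766). Its groups overlapped, so not every gene of this run moved with the others. The exons of Zfp52 overlap the annotated gene 9330136K24Rik, and those of Zfp54 overlap Gm49691.

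Zfp871 and Zfp81 lie in another cluster of chromosome 17. Zfp871, the most abundant of the 9 by CPM, was at 62.0 and 64.9 CPM and then at 81.7 and 71.5 CPM (log2 fold change 0.27 ± 0.079 SE, adjusted p = 0.0433). Zfp81 was at 17.9 and 17.8 CPM and then at 25.1 and 22.4 CPM (log2 fold change 0.41 ± 0.12 SE, adjusted p = 0.0459). In both the si-NC libraries were close to each other and below the si-Itgb6 libraries. Zfp267 on chromosome 3 was at 12.1 and 16.4 CPM and then at 20.3 and 22.8 CPM (log2 fold change 0.60 ± 0.14 SE, adjusted p = 0.00842). Zfp958 on chromosome 8 was at 10.4 and 10.1 CPM and then at 15.4 and 13.8 CPM (log2 fold change 0.52 ± 0.15 SE, adjusted p = 0.0404). The si-NC libraries were spread apart in Zfp267 and close together in Zfp958, and the groups overlapped in neither. The estimated counts of Zfp267 were not whole in any of the 4 libraries, so its values include fractional assignments of reads.

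**Figure D2:**
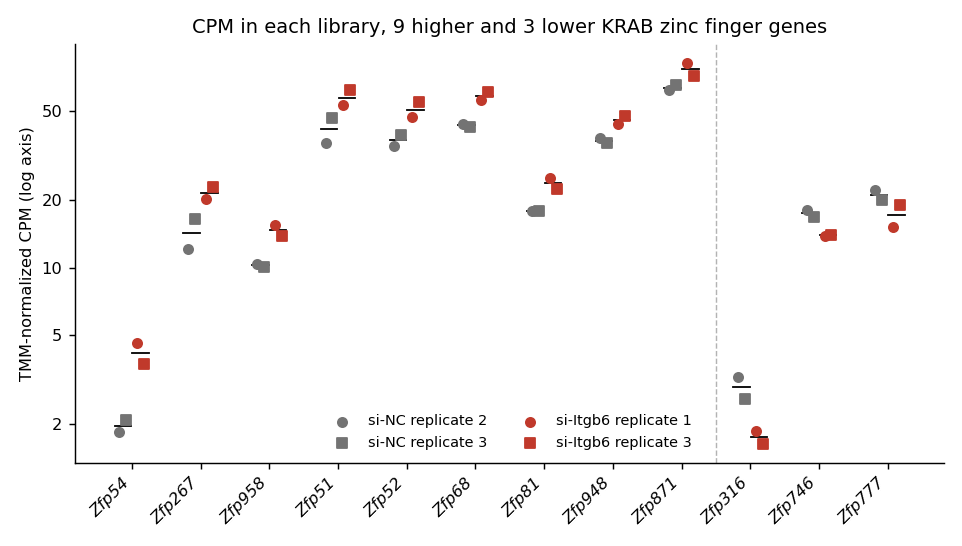
TMM-normalized CPM (log axis) of the 9 members that rose and, right of the dashed line, the 3 members called lower, with 1 point per library (grey si-NC, red si-Itgb6) and a bar at each group mean. The groups do not overlap in any of the 12 genes, and the 2 libraries of a group lie furthest apart for Zfp267 and Zfp51 in si-NC and for Zfp777 in si-Itgb6.

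How far these calls depend on a single library was examined by leaving out each in turn. Since the groups of all 27 members called higher did not overlap, the sign of their difference could not turn. Without si-NC replicate 2, none of the 9 passed an adjusted p under 0.05 and the lowest adjusted p of a member was 0.115, and of all genes only 7 were then higher at that threshold (0.058%). Of the 9, 3 passed without si-NC replicate 3. When si-Itgb6 replicate 1 was left out 5 passed, and when si-Itgb6 replicate 3 was left out 4 passed. The log2 fold change of Zfp51 ran from 0.30 to 0.67 over these fits, that of Zfp267 from 0.40 to 0.84 and that of Zfp68 from 0.38 to 0.49.

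The other 18 members called higher did not pass the adjusted threshold. Those with the lowest p were Zfp984, Zfp597 and Zfp560. Zfp984 was at 18.6 and 18.8 CPM and then at 24.2 and 23.9 CPM (log2 fold change 0.36, adjusted p = 0.0743), with libraries of a group very close together. Zfp597 was at 8.40 and 11.0 CPM and then at 14.0 and 13.2 CPM (log2 fold change 0.48, adjusted p = 0.0812), and its exons overlap those of Naa60 and Zfp174. Zfp560 was at 14 and 17 counts and then at 38 and 33 counts (log2 fold change 1.26, adjusted p = 0.0863). The remaining 15 were Zfp850, Zfp990, Zfp120, Zfp715, Zfp944, Zfp92, Zfp37, Zfp729b, Zfp772, Zfp268, Zfp85, Zfp354a, Zfp568, Zfp933 and Zfp119b. The 3 members nearest to the threshold on its inner side were Zfp568, Zfp933 and Zfp119b (edgeR, unadjusted p = 0.0469, 0.0487 and 0.0499), and the 3 nearest on its outer side were Zfp846, Zfp160 and Zfp605 (0.052, 0.0598 and 0.0633). All 6 had positive log2 fold changes.

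The 3 members called lower were Zfp746, Zfp777 and Zfp316, and none passed the adjusted threshold. Zfp746, which encodes PARIS, a substrate of parkin that represses the gene of the coactivator PGC-1α, was at 18.2 and 16.8 CPM and then at 13.9 and 13.9 CPM (log2 fold change −0.33, adjusted p = 0.161). Zfp777 was at 22.1 and 20.1 CPM and then at 15.2 and 19.0 CPM (log2 fold change −0.30, adjusted p = 0.200). Zfp316 was at 53 and 45 counts and then at 29 and 27 counts (log2 fold change −0.73, adjusted p = 0.250). All 3 had separate groups, but in Zfp777 the upper si-Itgb6 library lay close to the lower si-NC library. The transcripts of these 3 genes had a GC content of 56.1%, 59.1% and 58.6%, above the median of 49.8% for all genes tested.

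Of the members on the list of described genes, Zfp568, Zfp354a, Zfp37 and Zfp92 were called higher, and none of the others tested was called. Zfp57, which maintains DNA methylation at imprinted genes, was at 5.70 and 6.72 CPM and then at 6.72 and 6.56 CPM (log2 fold change 0.09, adjusted p = 0.856). Zfp809, which silences murine leukaemia provirus in embryonic stem cells, was at 10.9 and 9.67 CPM and then at 11.8 and 10.8 CPM (log2 fold change 0.14, adjusted p = 0.713). Zfp932, a repressor of endogenous retroviruses, was at 3.86 and 4.86 CPM and then at 5.17 and 5.10 CPM (log2 fold change 0.23, adjusted p = 0.662). The groups overlapped in Zfp57 and Zfp809 and were narrowly apart in Zfp932. Zfp708, another repressor of retroviral elements, had too few counts to be tested, with 22.8 estimated counts in si-Itgb6 replicate 3 and at most 3.35 in the other libraries. Zfp568, which represses a placental transcript of Igf2, was at 20 and 35 counts and then at 53 and 36 counts and was called higher (log2 fold change 0.77, adjusted p = 0.265). Its si-NC replicate 3 and si-Itgb6 replicate 3 differed by a single count.

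The Zfp354 genes on chromosome 11 bear on the tissue, since Zfp354a was described as the kidney factor Kid1, whose mRNA falls after renal injury. Zfp354a was at 12.1 and 10.9 CPM and then at 16.9 and 12.1 CPM (log2 fold change 0.33, adjusted p = 0.258). It was called higher, but si-Itgb6 replicate 3 was level with si-NC replicate 2, and the difference rested on si-Itgb6 replicate 1: the log2 fold change ran from 0.07 to 0.56 when single libraries were left out. Zfp354b had at most 9 counts in a library and was not tested. Zfp354c had 2 and 8 counts in si-NC and 12 and 11 counts in si-Itgb6 (log2 fold change 1.26, adjusted p = 0.370).

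Further members of the list of described genes, and the most abundant members, are given next. Zfp69, found in mouse crosses as a diabetes susceptibility gene, had 25 and 32 counts and then 45 and 26 counts (log2 fold change 0.40, adjusted p = 0.649). Zfp30 had 27 and 15 counts and then 33 and 30 counts (log2 fold change 0.65, adjusted p = 0.445). Zfp90 had 71 and 90 counts and then 69 and 83 counts (log2 fold change −0.010, adjusted p = 0.989). The groups overlapped in Zfp69 and Zfp90 and not in Zfp30. Zfp37 was called higher, at 14.3 and 16.0 CPM and then at 19.0 and 19.2 CPM (log2 fold change 0.33, adjusted p = 0.143). Zfp92 had the largest log2 fold change of the family, 1.89 ± 0.71 SE (adjusted p = 0.129), on only 5 and 3 counts in si-NC and 11 and 18 counts in si-Itgb6. It passed the low-count filter only through the si-Itgb6 libraries, the group in which it was high, so its value is a description. Of the most abundant members, Zfp7 was at 59.2 and 65.7 CPM and then at 77.4 and 71.6 CPM (log2 fold change 0.25, adjusted p = 0.0594). Zfp386 was at 29.7 and 28.2 CPM and then at 35.1 and 32.8 CPM (log2 fold change 0.23, adjusted p = 0.220). Neither exceeded the 1.2-fold threshold, although the groups of both were separate.

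Members were next grouped by position, since family members in tandem arise by duplication. Joining members no more than 1000000 bases apart gave 12 clusters with at least 5 tested members, which held 108 of the 176 tested members and 18 of the 27 called higher. The cluster on chromosome 17 from 21008903 to 23599487 had 20 tested members, of which 5 were called higher and 4 rose (Zfp54, Zfp51, Zfp52 and Zfp948). Of the 20, 15 were positive, with a median log2 fold change of 0.20. The cluster on chromosome 17 from 32765496 to 33394641 had 8 tested members, all positive, with a median of 0.27, and 2 rose (Zfp871 and Zfp81). Thus 6 of the 9 members that rose lay in these 2 clusters.

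On chromosome 4, from 145510759 to 147848366, 10 of 12 tested members were positive with a median log2 fold change of 0.34, and Zfp990, Zfp268, Zfp984 and Zfp933 were called higher without passing the adjusted threshold. The largest cluster, on chromosome 13 from 66119547 to 67827002 with 16 tested members, had a median of 0.04 and 2 members called higher, Zfp729b and Zfp85. The cluster on chromosome 6 from 47819266 to 48086593 went the other way. Of its 6 tested members, 1 was positive (Zfp398), the median was −0.31, and Zfp746 and Zfp777 were called lower. The groups were separate in the lower direction in 5 of the 6. The median transcript GC content was 36.1% in the chromosome 4 cluster, 38.5% and 41.0% in those of chromosome 17, and 55.0% in that of chromosome 6.

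**Figure D3:**
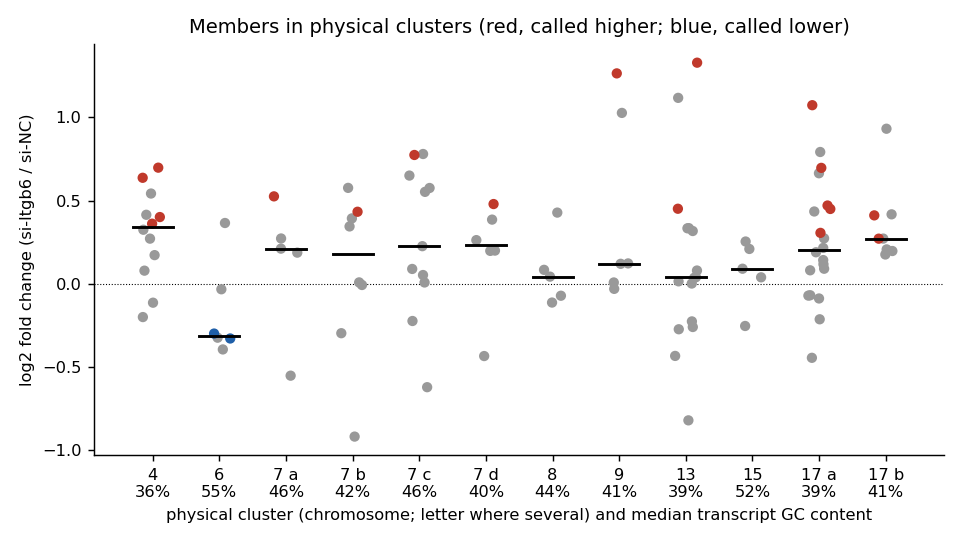
Log2 fold change of si-Itgb6 over si-NC for each tested member in the 12 clusters (points, red called higher, blue called lower), with the cluster median as a bar, 0 as a dotted line and the median transcript GC content under each chromosome. The medians run from −0.31 in the chromosome 6 cluster to 0.34 in the chromosome 4 cluster, and members within a cluster vary widely, from −0.45 to 1.07 in the first chromosome 17 cluster.

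The family has AT-rich transcripts, and the log2 fold changes of all genes moved with GC content. The median GC content of the longest transcript was 41.3% in the members tested, 48.6% in the other Zfp genes and 49.8% in all genes tested. Across the 11709 genes with a known value, Spearman's rho between GC content and log2 fold change was −0.36, and across the 175 members with a value it was −0.27. These are correlations across genes that share the same 4 libraries and are given as a description. Transcript length gave a rho of 0.026 in the members.

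Within ranges of GC content the members were compared with all genes of the same range. Under 40% GC, 67 members had a median log2 fold change of 0.23 and 19.4% were called higher, against 0.13 and 12.9% for 708 genes. From 40% to 45%, 61 members had a median of 0.25 with 18.03% called higher, against 0.07 and 8.27% for all genes. From 45% to 50%, the values were 0.05 and 11.5% in 26 members and 0.03 and 4.39% in all genes. The share of positive values in that range was 53.9% in the members and 57.1% in all genes. At 50% and above, 21 members had a median of −0.18, against −0.07 for all genes. In that range 0 members were called higher and 3 (14.3%) lower, against 1.70% and 8.62% of 5717 genes. The direction in both the members and all genes was positive in each range below 50% GC and negative above it. The other Zfp genes, those without the pathway annotation, had higher shares called higher than the members in the 3 ranges below 50% GC: 29.4% of 17, 29.0% of 31 and 19.2% of 26 genes. Their medians there were 0.21, 0.13 and 0.11.

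When the trends with GC content and length were removed from each library before the same test, the median log2 fold change of the members was 0.09, against 0.0038 for all genes, and 110 of 176 were positive. With the study's thresholds 16 members (9.09%) were then called higher, against 3.59% of all genes, and 1 (0.568%) was called lower, against 3.59% of all genes. Of the 27 members called higher before, 15 were still called, and Zfp7 was added (log2 fold change 0.28). None of the 3 lower calls remained, though the log2 fold changes were still −0.22 (Zfp746), −0.16 (Zfp777) and −0.61 (Zfp316), and the single lower call was Zfp617, which was not called before and is named here after its values were seen. With an adjusted p under 0.05, Zfp68 (log2 fold change 0.35, adjusted p = 0.0251) and Zfp52 (0.35, adjusted p = 0.0496) remained of the 9. Zfp267 had an adjusted p of 0.0501 and Zfp51 of 0.0753. Zfp54 had an adjusted p of 0.0998 with a log2 fold change of 0.97, against 1.07 before, and was still called higher. Missing the adjusted threshold thus did not always mean a much smaller difference. In the first chromosome 17 cluster the median went from 0.20 to 0.07, in the chromosome 4 cluster from 0.34 to 0.19 and in the chromosome 6 cluster from −0.31 to −0.19. Whether the trend arose in the cells or in library preparation was not tested.

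**Figure D4:**
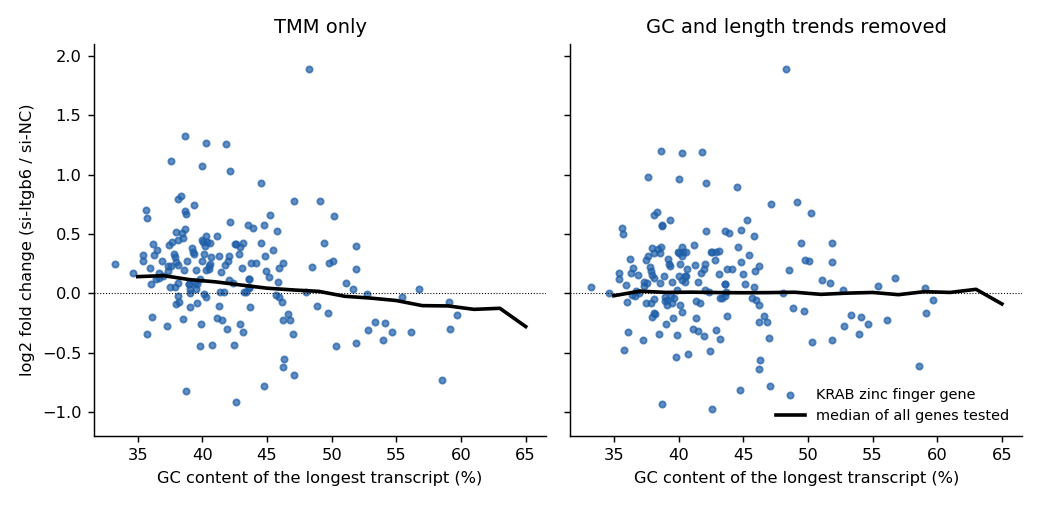
Log2 fold change of si-Itgb6 over si-NC against the GC content (%) of the longest transcript, before (left) and after (right) the GC and length trends were removed, with a point for each KRAB zinc finger gene tested and a black line for the running median of all genes tested. The line falls with GC content on the left and is close to 0 along most of its length on the right, while the median of the members goes from 0.19 to 0.09.

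Zinc finger genes outside the rule were compared with the members. Of 164 other Zfp genes, which lack the pathway annotation and include many C2H2 factors without a KRAB domain, 134 were tested. Of these, 20 were called higher (14.9%) and 5 lower (3.73%). Their share called higher was close to the members' 15.3%, so it was not particular to genes with the annotation. KRAB genes without the annotation were not separated out of this set. The other Zfp genes had a median level of 5.19 FPKM, against 1.35 FPKM in the members. Their median log2 fold change was 0.03, against 0.19 in the members. With GC and length trends removed these medians were 0.046 and 0.093, and 12 of the other Zfp genes (8.96%) were called higher, against 9.09% of the members. The difference between the sets was not tested. Among them, Zfp445, which guards imprints together with Zfp57 but lacks the annotation, rose from 75.7 and 80.1 CPM to 94.0 and 94.8 CPM (log2 fold change 0.28, adjusted p = 0.0201). Zfp110, a partner of the p75 neurotrophin receptor also called Nrif1, rose from 23.9 and 24.9 CPM to 33.5 and 31.3 CPM (log2 fold change 0.41, adjusted p = 0.0223). Zfp369, its paralogue, was at 2.27 and 3.995 CPM and then at 3.81 and 4.25 CPM (log2 fold change 0.36, adjusted p = 0.555).

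A second group shares the orthology term K09228 but carries other symbols, such as predicted genes. Of 85 such genes, 50 were tested, and their median log2 fold change was 0.22 with 35 positive. Of the 50, 4 were called higher (8%, against 4.37% of all genes) and 0 were called lower (against 5.2% of all genes). The adjusted threshold was passed by 0 in either direction, against 2.11% of all genes higher and 2.52% lower. The summed level of the 85 genes was 260 and 276 CPM in si-NC and 303 and 304 CPM in si-Itgb6, and these sums did not overlap. The same was true of the members and of the other Zfp genes, whose sums were 3797 and 3870 CPM in si-NC and 4041 and 3907 CPM in si-Itgb6. Their median transcript GC content was 39.98%.

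The proteins through which KRAB factors act were looked at by a list of 33 cofactor genes, all of which were tested. By the study's thresholds 0 were called in either direction with edgeR or DESeq2. With edgeR these thresholds called 4.37% of all genes higher and 5.2% lower. The adjusted threshold was passed by 0 with either tool (DESeq2 gave an adjusted p for 28 of them). With edgeR, 2.11% of all genes passed it higher and 2.52% lower. At an unadjusted p under 0.05 there were 5 of 33, against 8.8% of all genes higher and 9.62% lower. The median log2 fold change of the list was 0.02, with 18 positive. Trim28, which encodes KAP1, was at 115 FPKM on average and had 6143 and 6729 counts in si-NC and 5719 and 5849 counts in si-Itgb6 (log2 fold change −0.081, adjusted p = 0.422). Scaled to library size it was at 377 and 390 CPM and then at 369 and 355 CPM, so its groups were separate. Setdb1 had 504 and 526 counts and then 454 and 562 counts (log2 fold change 0.050, adjusted p = 0.851), and its groups overlapped. The 5 with an unadjusted p under 0.05 were Dnmt1 (log2 fold change −0.18, adjusted p = 0.0532), the maintenance DNA methyltransferase, Chaf1a (−0.20, 0.0879), Atrx (0.24, 0.0729), Suv39h1 (0.20, 0.134) and Morc3 (0.20, 0.197). By group, the median was 0.03 for 13 genes of the KAP1 complex and 0.18 for 5 HUSH and MORC genes (all 5 positive). It was −0.09 for 5 DNA methylation genes, −0.0057 for 5 H3K9 methyltransferase genes and −0.07 for 5 chromatin assembly genes. With GC and length trends removed, the HUSH and MORC values were 0.20 (Morc2a), −0.024 (Pphln1), 0.16 (Morc3), 0.10 (Tasor) and 0.012 (Mphosph8). Not all 5 were then positive. The DNA methylation values were then −0.11 (Dnmt1), −0.027 (Uhrf1), −0.051 (Dnmt3a), −0.22 (Dnmt3b) and −0.013 (Hells).

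The share of members called higher was finally set beside that of all genes under each processing setting. It ranged from 9.09% to 18.1% of the members tested and from 2.73% to 5.39% of all genes tested. Under each of the 15 settings the share in the members was above the share in all genes.

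**Figure D5:**
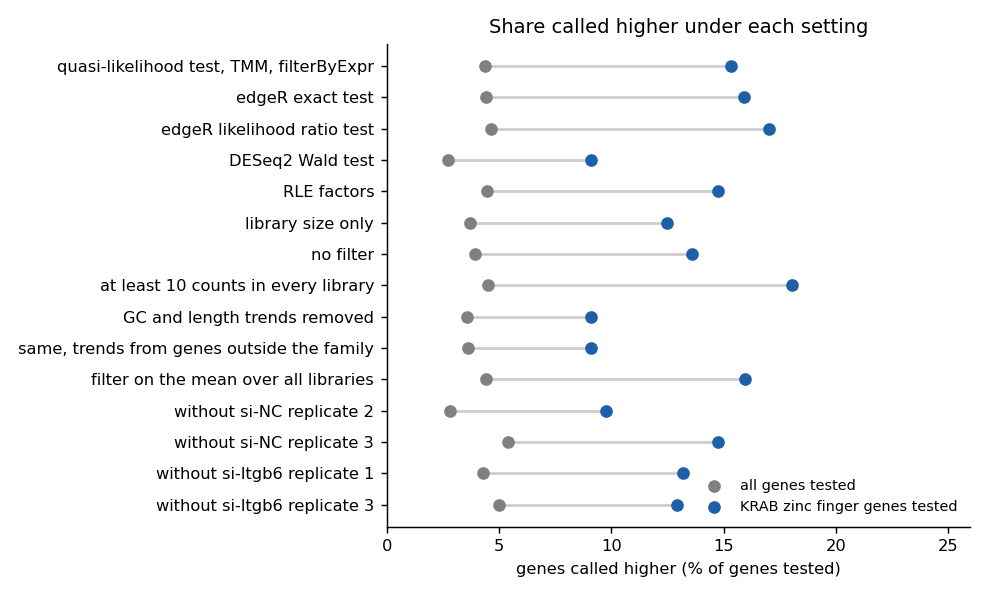
Share (%) of genes tested that were called higher in si-Itgb6, for KRAB zinc finger genes (blue) and all genes (grey), under the setting used in the text (top row) and 14 alternatives. The blue point lies right of the grey point in each row, with the lowest blue values (9.09%) under DESeq2 and with the GC and length trends removed.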

How the data were processed

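The members, gene lists and tests were chosen with earlier results of these data known. The authors made unstranded paired-end libraries of polyadenylated RNA. They deposited FPKM values and, as unnormalized estimated counts, a table whose values are not whole for 1447 to 1500 genes per library. The aligner, counter, build and annotation are not given in the sources used here. The FPKM values, as deposited by the authors, were used for levels only.

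Estimated counts were rounded, filtered with filterByExpr (minimum count 10, minimum total 15), scaled (TMM) and compared by quasi-likelihood F-tests in edgeR 4.0.16 (R 4.3.3), with Benjamini-Hochberg adjustment over 11727 genes. "Called" means more than 1.2-fold with an unadjusted p under 0.05, the study's thresholds. "Rose" means an adjusted p under 0.05. Intervals are at 95%. The fit was tested on simulated counts. The study states independent biological replicates for its experiments in general, but neither it nor the labels say that these libraries came from separate cultures, so p-values measure the spread between these libraries, which may be technical. With 2 libraries per group an exact permutation test cannot reach 0.05. The 2 libraries of neither group agreed within sampling noise (chi-square per gene 3.21 and 4.08).

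Coordinates, GC content and lengths came from GENCODE vM21 (GRCm38), in which 236 members were found. GC and length trends were removed with lowess curves (span 0.3) as offsets. Promoters were aligned with Biopython 1.88. Named were Itgb6, members with an adjusted p under 0.05, up to 12 called members per direction by p, the 5 of highest FPKM, those next to the threshold, and fixed lists of described members and cofactors. Alternatives were DESeq2 1.42.0, other edgeR tests, scalings, filters and thresholds, trend removal and leaving out each library. The filter on the mean, the trends taken from other genes and the recount at an adjusted p were chosen after seeing the data.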

Additional observations from a re-analysis of the deposited data

How the results depend on the processing

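Of 514 values of 37 named genes under the alternatives, 443 kept their direction and side of the threshold (28 of them without an adjusted p from DESeq2, so by direction alone), 56 lost the call, 9 gained it and 6 changed sign. The sign changes among these 37 genes all came from leaving out 1 library. Itgb6 went to 0.04 (si-NC replicate 2 left out) and 0.091 (si-Itgb6 replicate 3 left out), within a range from −0.10 to 0.091. Zfp57 went to −0.018 (si-NC replicate 2 left out), with a range up to 0.22. Zfp69 went to −0.10 (si-Itgb6 replicate 1 left out), with a range up to 0.78. Zfp90 went to 0.13 (si-NC replicate 3 left out) and 0.07 (si-Itgb6 replicate 1 left out), with a range from −0.13. The cofactors were not among the 37. Some of them changed sign with the GC and length trends removed, among them Trim28 (−0.081 to 0.059) and Hells (0.105 to −0.013). Members called higher and lower numbered 16 and 0 with DESeq2 (all genes 320 and 383), 16 and 1 with GC and length trends removed, 16 and 1 with trends from genes outside the family, 10 and 1 with a fold change over 1.5 (all genes 125 and 110), and 9 and 0 with an adjusted p (all genes 247 and 295). Members higher at an adjusted p numbered 3 with DESeq2 (146 of all genes, 2.51%), 5 with library size only (173, 1.48%), 2 with the trends removed (112, 0.955%) and 3 with trends from genes outside the family (121, 1.03%). The members' median log2 fold change was 0.093 and 0.10 with these trends removed. Leaving out 1 library gave 18 to 27 members called higher and 1 to 3 lower, 338 to 645 of all genes higher and 402 to 768 lower, 0 to 7 members higher at an adjusted p (7 to 368 of all genes), a members' median of 0.16 to 0.24 and a median of other Zfp genes of 0.01 to 0.08. The cause of these shifts was not tested. The lone library of a group was then assumed to vary like the other group. No paired analysis was possible because the groups share only the replicate number 3. Low counts limit what the 61 untested members can show.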
